A study of Homo sapiens with 2 samples.

Results

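MaLR elements are mammalian LTR retrotransposons of the ERVL-MaLR family, and peaks of the kinase mTOR over their MLT1 members and over the terminal repeats of their THE1 and MST members are described here. The members were all peaks whose centre carried an ERVL-MaLR label, except THE1 and MST internal sequence (names that end -int). They numbered 842 of the 21440 peaks, of which 568 had MLT1 names, 204 THE1 LTR names and 70 MST LTR names. Of the MLT1 peaks 42 had internal names, so the set is not made of terminal repeats alone. The data are 1 table of annotated peaks on the hg38 build, from 1 chromatin immunoprecipitation and sequencing (ChIP-seq) library made with an mTOR antibody. The cells were of the MDA-MB-231 line, which derives from a triple-negative breast cancer, were grown in DMEM with serum, and had no treatment named. An input library served as the reference for peak calling and was not analysed here, and neither library has a replicate. Peaks from a control antibody were not used here. No test over samples exists for this design, and peaks of 1 library are not replicates, so values are given with 95% intervals that cover counting error only and without p-values. Shares have exact Clopper-Pearson intervals, and medians have binomial order-statistic intervals.

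An element of this kind entered the genome as a pair of long terminal repeats (LTRs) around an internal sequence that lacks the genes of a complete retrovirus. The LTR holds the promoter and the polyadenylation signal, and many copies persist as a single LTR after recombination between the pair. MLT1 copies are old and shared among placental mammals, MST copies are younger, and THE1 copies are the youngest and specific to primates. A THE1B LTR is known as the alternative promoter of CSF1R, a growth factor receptor gene, in Hodgkin lymphoma. No member was assigned to CSF1R.

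Sequence was at hand only for gene promoters, in a RefSeq table on GRCh38.p14, and MLT1 peaks reached the 250 bases before a start site at 2 of these promoters. They are shown because they are the places where the DNA under a member can be read. The first lies at chr19:18328475-18328724 on the plus strand, before the lncRNA gene LOC124904654, and falls wholly inside an MLT1K peak of score 37 (chr19:18328395-18328862). Capitals mark the 41 bases around the peak centre, which lies 97 bp before the start.
LOC124904654: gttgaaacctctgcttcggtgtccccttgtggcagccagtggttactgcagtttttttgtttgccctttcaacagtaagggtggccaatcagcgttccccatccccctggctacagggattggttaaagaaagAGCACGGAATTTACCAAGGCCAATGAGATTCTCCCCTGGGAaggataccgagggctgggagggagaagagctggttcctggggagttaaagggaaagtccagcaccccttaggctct
The second lies at chr19:3538924-3539173 on the plus strand, before TEKTIP1, named C19orf71 in the deposited annotation, which encodes a tektin-bundle-interacting protein. Capitals mark the 81 bases that lie inside an MLT1C peak of score 599 (chr19:3539093-3540356). Its centre, where the MLT1C label applies, is 567 bp past the assigned start.
TEKTIP1: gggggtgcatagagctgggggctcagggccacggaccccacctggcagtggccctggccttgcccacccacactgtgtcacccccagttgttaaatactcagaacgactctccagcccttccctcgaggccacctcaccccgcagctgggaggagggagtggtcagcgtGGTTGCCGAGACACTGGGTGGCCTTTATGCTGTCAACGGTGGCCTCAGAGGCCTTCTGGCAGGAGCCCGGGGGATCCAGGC
The letters CCAAT, the core of the NF-Y site, were searched on both strands after the sequences had been seen. They occurred 3 times before LOC124904654, at 166 to 162, 132 to 128 and 98 to 94 bp before the start, the last inside the capitals, and not before TEKTIP1. Of all 35116 promoters listed, 32.0% held CCAAT at least once in these 250 bases and 2.93% held it 3 times or more. The RONIN-type motif, the E-box CACGTG and the AP-1 letters TGANTCA, searched on both strands, occurred in neither sequence. They were in 0.934%, 6.34% and 6.57% of all promoters. GC content was 53.2% before LOC124904654 and 65.6% before TEKTIP1, with a median of 58% over the table.

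Within MaLR elements, the part under the peak centre differed between MLT1 and the younger groups. MLT1 peaks lay over LTR names in 526 of 568 cases, and internal names held 7.39% (5.38 to 9.86%). THE1 peaks lay over internal names in 762 of 966 cases, or 78.9% (76.2 to 81.4%), and MST peaks in 206 of 276, or 74.6% (69.1 to 79.7%). The intervals of THE1 and MST overlapped, and both lay far above that of MLT1. The genomic extent of LTR and internal copies was not analysed here, and the shares are of peaks, not of copies.

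**Figure D1:**
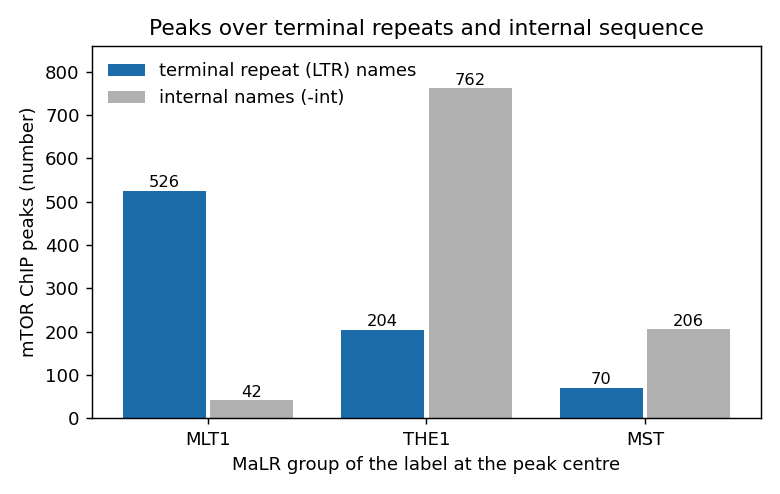
Number of mTOR ChIP peaks (vertical axis) whose centre lies over terminal repeat names or internal names, for the MLT1, THE1 and MST groups. MLT1 has 526 LTR and 42 internal peaks, whereas THE1 has 204 and 762 and MST 70 and 206.

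The members carried 54 repeat names, and a few of them held most peaks. MLT1J alone had 177 peaks, 31.2% of the MLT1 peaks, on all 23 chromosomes of the table. MLT1L followed with 50, MLT1D with 33, MLT1F2 with 32, MLT1F with 30 and MLT1H with 22. The close relatives of MLT1J had fewer peaks, 18 for MLT1J2 and 7 for MLT1J1. The number of genomic copies of each name was not analysed here, so these are counts of peaks, not shares of copies. MLT1N2, MLT1A0, MLT1F1, MLT1B, MLT1I, MLT1E1A, MLT1K and MLT1C had between 10 and 17 peaks each, while 29 names with fewer than 10 peaks held the remaining 92. Among terminal repeats of the younger groups THE1C had 97 peaks, THE1B 73, THE1D 18 and THE1A 16. MSTA had 35 of the 70 MST LTR peaks and MSTB 17.

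The deposited peak score is the authors' own whole number without a named scale and is used only to rank peaks within the list. Its median was 67 (61 to 72) over MLT1, 61 (53 to 69) over THE1 LTRs and 61 (51 to 74) over MST LTRs, and 61 over all repeat-labelled peaks. The 3 intervals overlapped. MLT1J stood higher than the rest of its group, with a median of 85 (73 to 95) against 59 (53 to 66) in the other 391 MLT1 peaks, and these intervals did not overlap. MLT1B, with 15 peaks, had 82 (37 to 113), and MLT1L had 78.5 (65 to 100). The lowest medians among names with at least 10 peaks were 37 for MLT1K (14 to 179), 43 for MLT1C (24 to 116) and 45.5 for MLT1J2 (35 to 78). MSTA, at 80 (61 to 100), was above MSTB at 53 (34 to 68), with overlapping intervals. The THE1 names ran from 58.5 in THE1D to 71 in THE1A, less than the width of their intervals. Because MLT1J was singled out after its values were seen, its difference is a description.

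**Figure D2:**
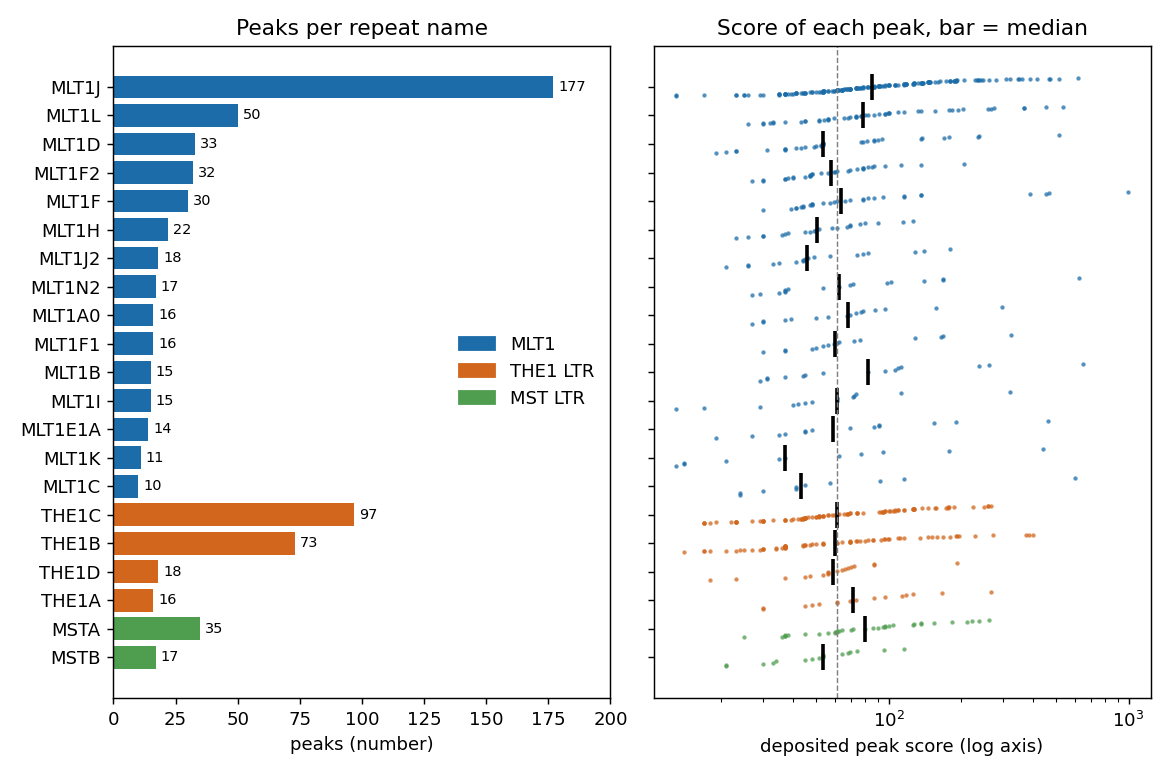
Left, number of peaks for each repeat name with at least 10 peaks; right, the deposited score of each of these peaks on a log axis, with the median as a black bar and the median of all peaks, 61, as a dashed line. MLT1J, with 177 peaks, has its median at 85, MLT1B, with 15 peaks, at 82, and MLT1L at 78.5.

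Scores at or above the median of 61, reached by 52.3% of repeat-labelled peaks, were found in 315 of 568 MLT1 peaks (55.5%, 51.3 to 59.6%) and 141 of 274 THE1 and MST LTR peaks (51.5%, 45.4 to 57.5%). Scores of 200 or more, reached by 10.0% of all peaks and 9.73% of repeat-labelled peaks, were found in 51 of 568 MLT1 peaks or 8.98% (6.76 to 11.6%). THE1 LTRs had 11 of 204 such peaks (5.39%, 2.72 to 9.44%) and MST LTRs 5 of 70 (7.14%, 2.36 to 15.9%). The THE1 and MST LTRs together had 16 of 274 (5.84%, 3.37 to 9.31%), an interval that overlaps that of MLT1 and lies just below the share of repeat-labelled peaks. Internal THE1 and MST peaks reached such scores in 13.2% of 968 (11.2 to 15.5%), and their median score was 77 (69 to 78). Within MLT1, scores of 200 or more were found in 20 of 177 MLT1J peaks (11.3%, 7.04 to 16.9%). The other MLT1 names had 31 of 391 (7.93%, 5.45 to 11.1%). Among them were MLT1L with 8 of 50 (interval 7.17 to 29.1%) and MLT1B with 3 of 15 (interval 4.33 to 48.1%). These intervals overlapped, and each included the 9.73% of repeat-labelled peaks. None of the 22 MLT1H peaks reached 200, and their highest score was 126. A count of 0 in 22 leaves a share of up to 15.4% by the exact interval.

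**Figure D3:**
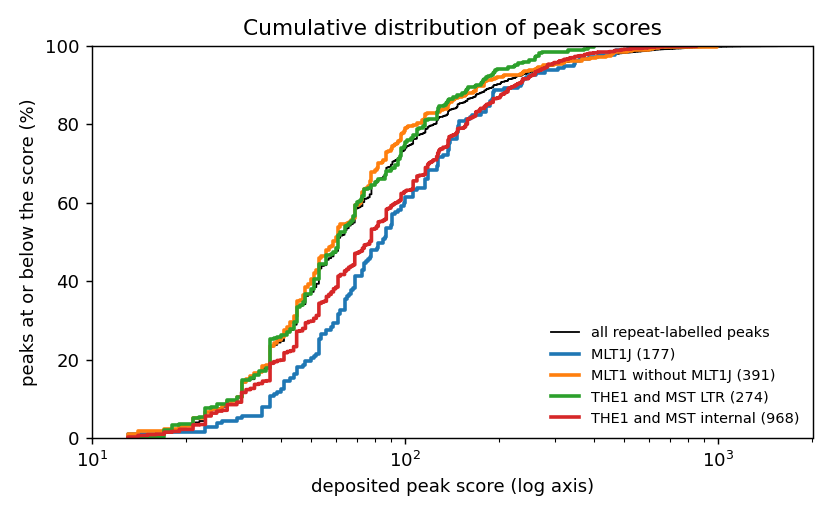
Percentage of peaks at or below each deposited score (log axis) for MLT1J, the other MLT1 names, THE1 and MST LTRs, THE1 and MST internal sequence, and all repeat-labelled peaks. The curve of MLT1J, median 85, lies to the right of the other MLT1 names, median 59, which run close to the THE1 and MST LTRs, median 61.

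Widths differed little between the groups. The median was 384.5 bp (370 to 402) for MLT1, 385 bp (358 to 406) for THE1 LTRs and 350 bp (308 to 418) for MST LTRs, against 383 bp for all repeat-labelled peaks and 446 bp (432 to 459) for THE1 and MST internal sequence. Wider peaks scored higher: Pearson's r of log2 score and log2 width was 0.55 over 568 MLT1 peaks, 0.64 over 204 THE1 LTR peaks and 0.68 over 70 MST LTR peaks. These are correlations across peaks of 1 library, which are not independent replicates. The 177 MLT1J peaks were no wider than the other MLT1 peaks, at 375 bp (357 to 398) against 390 bp (371 to 413), although their scores were higher.

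The highest-scoring member was an MLT1F peak of score 994 on chromosome 22 (37432160 to 37433275). It ranked 89 among all peaks and lay 5238 bp upstream of ELFN2, which encodes a leucine-rich repeat membrane protein. An MLT1B peak on chromosome 7 (93170845 to 93172426) had 646 and lay 23250 bp upstream of SAMD9L, an interferon-induced antiviral gene. An MLT1N2 peak on chromosome 17 (7537516 to 7538592) had 619, 11004 bp upstream of TNFSF12, the gene of the cytokine TWEAK. The top MLT1J peak, with 613, was on chromosome 3 (13265425 to 13266011), 154604 bp from the start of NUP210, a nuclear pore glycoprotein gene. Next came the MLT1C peak at C19orf71 with 599. Of these 5 peaks 4 were deposited as intergenic and 1 in intron 1 of 3.

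THE1 and MST LTRs reached lower top scores, but from fewer peaks, 204 and 70 against 568 for MLT1. The top score of a group tends to rise with its number of peaks. The top 4 THE1 LTR peaks were all THE1B. The first, of 400, lay in intron 6 of 20 of FMN1, a formin that nucleates actin (chromosome 15, 33048034 to 33049193). The next had 384, 136728 bp from the start of TMEM30B, a flippase subunit gene, 373 upstream of PLA2G1B, the pancreatic phospholipase A2 gene, and 273 upstream of TXNDC2, a thioredoxin gene. The top MST LTR peak was an MSTD peak of 331 on chromosome 5 (74916934 to 74917681), 50341 bp upstream of FAM169A. MSTA peaks followed at BICD1, a dynein adaptor gene, with 261, MYO10, a filopodial myosin gene, with 237, CHMP3, an ESCRT-III subunit gene, with 222, and TJP1, the tight junction gene of ZO-1, with 213. The peaks at CHMP3 and TJP1 lay in introns 1 and 2.

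Few members lay at start sites, where the deposited labels name no repeats. The deposited table gave a repeat label only to intron and intergenic peaks: of the 3987 peaks in promoter, exon, UTR, gene end and non-coding classes 0 carried one. Repeat-labelled peaks are therefore the measure for the members here. Centres within 1 kb of a start were found for 3 of 568 MLT1 peaks (0.528%, 0.109 to 1.54%) and 1 of 274 THE1 and MST LTR peaks (0.365%, 0.00924 to 2.02%), against 0.644% of repeat-labelled peaks. All 4 lay in a first intron, and only intron and intergenic peaks could be counted here. They were the MLT1C peak at C19orf71, an MLT1F peak of 48 at LOC101928682, an MLT1J peak of 23 at LINC00051 and a THE1C peak of 30 at LOC101928135. The last 3 genes are non-coding. In the RefSeq promoter table, used with chromosome 8 left out, windows ran from 250 bases before to 50 after a start. They were overlapped by 3 of 533 MLT1 peaks (0.563%, 0.116 to 1.64%) and none of 262 THE1 and MST LTR peaks. The latter allows a share of up to 1.40% by the exact interval. Repeat-labelled peaks were at 0.273% (36 of 13167), inside the MLT1 interval, and all peaks at 11.2%. Members carry a repeat label, so peaks deposited in the promoter class could not be among them here either. The MLT1K peak at LOC124904654, whose sequence is given above, was deposited as 5552 bp upstream of LSM4, a gene of an RNA-binding Sm-like protein.

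By distance to the assigned start site, MLT1 peaks lay closer than THE1 LTR peaks did. The median distance to the assigned start was 26514 bp (23502 to 28956) for MLT1, 43039.5 bp (35376 to 58902) for THE1 LTRs and 36206.5 bp (19647 to 57559) for MST LTRs, and 36568 bp for all repeat-labelled peaks. The MLT1 and THE1 LTR intervals did not overlap, while that of MST LTRs overlapped both. ERVL peaks outside the MaLR group had a median of 28074 bp (24694 to 35879), which also overlapped both. Distances over 50 kb made up 28.7% (25 to 32.6%) of MLT1 peaks and 44.5% (38.5 to 50.6%) of THE1 and MST LTR peaks, with 40.6% of repeat-labelled peaks between them. Peaks over L2 and MIR, other old repeats, had 20.5% (17.4 to 23.9%) and 19.2% (15.9 to 22.7%). Introns held 40.5% (36.4 to 44.7%) of MLT1 peaks and 41.6% (35.7 to 47.7%) of THE1 and MST LTR peaks, close to the 44.4% of repeat-labelled peaks, which lay inside both intervals. ERVL peaks outside the MaLR group were at 35.8% (29.4 to 42.5%), L2 peaks at 58.5% (54.5 to 62.5%) and MIR peaks at 58.0% (53.7 to 62.2%). First introns held 12.5% (9.89 to 15.5%) and 15.3% (11.3 to 20.1%) of the MLT1 and the THE1 and MST LTR peaks, against 14.1% of repeat-labelled peaks.

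Chromosomes 20 and 16 held more MLT1 peaks than their share of other repeat peaks. Chromosome 20 had 50 MLT1 peaks, 8.80% (6.60 to 11.4%), against 2.77% (2.50 to 3.05%) of repeat-labelled peaks and 2.19% (0.808 to 4.71%) of THE1 and MST LTR peaks. Chromosome 16 had 47, 8.27% (6.14 to 10.9%), against 3.27% (2.97 to 3.58%) and 2.92% (1.27 to 5.67%). Both chromosomes were chosen after the shares were seen. MLT1J and the other MLT1 names were alike here, with 9.60% and 8.44% on chromosome 20 and 7.91% and 8.44% on chromosome 16. L2 peaks were at 8.69% (6.58 to 11.2%) and 5.90% (4.17 to 8.08%), and MIR peaks at 7.00% (5.00 to 9.48%) and 7.37% (5.31 to 9.90%), so the old repeats overlapped MLT1 in both. ERVL elements outside the MaLR group had 2.75% (1.02 to 5.89%) on chromosome 20. Of the 50 MLT1 peaks on chromosome 20, 40 lay past 30 Mb, or 80.0% (66.3 to 90.0%), as did 71.0% (67.4 to 74.5%) of all its peaks. Copy number in this cell line and the genomic density of each repeat were not tested.

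Chromosome 19, rich in genes, held 43 MLT1 peaks (7.57%, 5.53 to 10.1%) and 10 THE1 and MST LTR peaks (3.65%, 1.76 to 6.61%), all 10 over THE1. These intervals overlapped. Repeat-labelled peaks were at 4.94% and L2 peaks at 23.6% (20.3 to 27.2%). Chromosome 4 held 2.99% (1.75 to 4.75%) of MLT1 and 7.30% (4.52 to 11.0%) of THE1 and MST LTR peaks, again with overlapping intervals, and 4.93% of repeat-labelled peaks. Chromosome 22 held 14 MLT1 peaks (2.46%, 1.35 to 4.10%) against 1.50% of repeat-labelled peaks, and chromosome X held 5 (0.880%, 0.286 to 2.04%) against 0.775%. Each of the 2 had 0 of 274 THE1 and MST LTR peaks, which allows a share of up to 1.34% by the exact interval, above the repeat-labelled share on X and below that on 22.

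**Figure D4:**
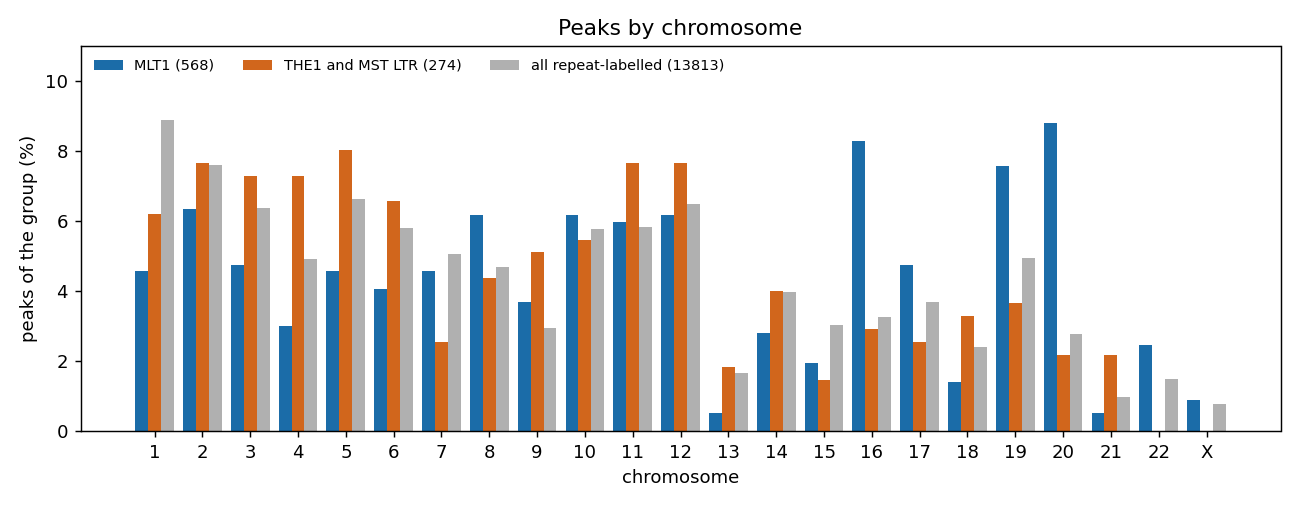
Percentage of the 568 MLT1 peaks, the 274 THE1 and MST LTR peaks and the 13813 repeat-labelled peaks on each chromosome. MLT1 bars are highest on chromosomes 20 (8.80%) and 16 (8.27%), where THE1 and MST LTRs are at 2.19% and 2.92%.

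Some LTR peaks had a separate peak over internal sequence next to them. A THE1 or MST internal peak lay within 5 kb, centre to centre, of 24 of 204 THE1 LTR peaks (11.8%, 7.69 to 17.0%) and 3 of 70 MST LTR peaks (4.29%, 0.893 to 12%). For 3 of 568 MLT1 peaks (0.528%, 0.109 to 1.54%) it lay there too, but such a partner cannot belong to an MLT1 element. With internal peaks of the own class alone as partners, 23 of 204 THE1 LTR peaks (11.3%, 7.28 to 16.4%), 3 of 70 MST LTR peaks and 2 of 526 MLT1 LTR peaks (0.380%, 0.0461 to 1.37%) had one. The classes differ in the number of internal peaks that could be partners. Counted from the internal side, 24 of 762 THE1 internal peaks (3.15%, 2.03 to 4.65%), 3 of 206 MST internal peaks (1.46%, 0.301 to 4.20%) and 2 of 42 MLT1 internal peaks (4.76%, 0.582 to 16.2%) had an LTR peak of their class, and these intervals overlapped. In 26 of the 27 THE1 and MST pairs the names matched, such as THE1B beside THE1B-int, and centres were 724 to 2143 bp apart with a median of 1081 bp. The peaks of a pair were called separately, with 283 to 1813 bp between their edges. With either class as partner, 28 of 968 THE1 and MST internal peaks (2.89%, 1.93 to 4.15%) had an LTR peak within 5 kb.

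Within these pairs the internal peak had the higher score in 20 of 27, with medians of 106 for the internal and 45 for the LTR peak. The widest gap was at a THE1C element on chromosome 1, where the LTR peak (218508746 to 218509074) had 17 and the THE1C-int peak (218507256 to 218508394) had 852. An MSTA LTR peak on chromosome 20 (25513523 to 25513820) had 38 beside an MSTA-int peak of 449. The opposite order was clearest at a THE1A element on chromosome 21 (29253735 to 29255071), with 267 over the LTR and 17 over the internal part. These examples were chosen after their values were seen. LTR peaks in pairs had a median score of 45 (37 to 61), and the 247 without a partner had 62 (56 to 69), with overlapping intervals. Over all THE1 and MST peaks the median was 77 (69 to 78) for internal and 61 (53 to 68) for LTR names. Higher internal scores were therefore not particular to the pairs.

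**Figure D5:**
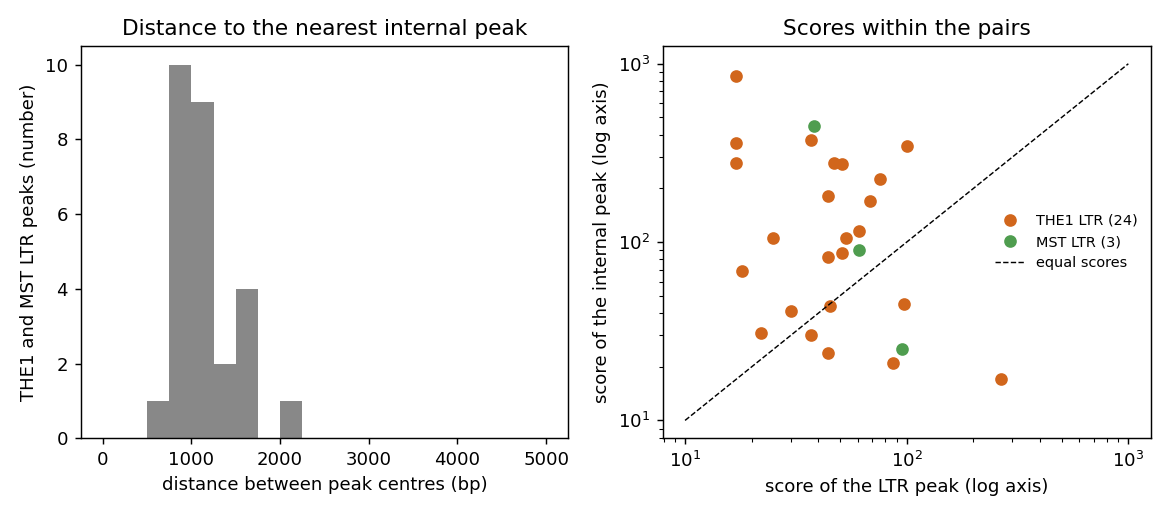
Left, distance between the centres of the 27 THE1 and MST LTR peaks and their nearest internal peak, in bins of 250 bp; right, the scores of both peaks on log axes with a line of equal scores. Distances run from 724 to 2143 bp, and 20 of 27 points lie above the line.

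Pairs of peaks within a class were few. Another MLT1 peak lay within 5 kb of 2.11% (1.10 to 3.66%) of the 568 MLT1 peaks. The same share was 6.39% (4.59 to 8.64%) for 610 L2 peaks and 6.26% (4.37 to 8.64%) for 543 MIR peaks. It was 0.917% (0.111 to 3.27%) for 218 ERVL peaks outside the MaLR group. The classes differ in the number of peaks that could be partners. In all, 6 pairs of MLT1 peaks lay within 5 kb, and in 5 of these 6 both peaks carried the same name apart from the -int ending. They included a pair of MLT1J peaks near CACTIN on chromosome 19, with scores 514 and 139, and a pair near SLC52A3, a riboflavin transporter gene, on chromosome 20, with 53 and 243. MLT1B and MLT1F each had an LTR peak beside a peak over their own internal sequence, 854 and 1351 bp apart. Among THE1 LTRs 1 pair was found, the THE1B peaks near PLA2G1B with 135 and 373, 1176 bp apart. MST LTRs had none, which allows a share of up to 5.13% of their 70 peaks by the exact interval. Any other peak of the list lay within 5 kb of 19.4% (16.2 to 22.9%) of MLT1 peaks and 23.4% (18.5 to 28.8%) of THE1 and MST LTR peaks, against 16.9% of repeat-labelled peaks. Beside MLT1 the neighbours were most often intergenic peaks without a repeat label, at 25 peaks, and L1 peaks, at 22. Beside THE1 and MST LTRs they were other MaLR peaks, at 32, and L1 peaks, at 20.

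The members were spread over 751 nearest genes, of which 676 had a single member. SCARB1, the HDL receptor gene, had 3 MLT1 peaks, of 50, 118 and 50. TRIO, a guanine nucleotide exchange factor gene, had an MLT1J peak of 346 (chromosome 5, 14110734 to 14111161), a THE1C peak of 62 and an MSTB peak of 116. PDGFC, a growth factor gene, had only THE1 LTRs, at 48, 193 and 53. The genes with 3 or more members numbered 13, and they were singled out after the counts were seen.

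Nearest genes were protein-coding for 68.3% (64.3 to 72.1%) of MLT1 peaks and 68.6% (62.8 to 74.1%) of THE1 and MST LTR peaks, close to the 68.3% of repeat-labelled peaks. ZNF genes, whose zinc finger products include many repressors of retroelements, were nearest to 8 MLT1 peaks (1.41%, 0.610 to 2.76%) and 8 THE1 and MST LTR peaks (2.92%, 1.27 to 5.67%), against 1.65% of repeat-labelled peaks. The highest scores among them were 178 for an MLT1D-int peak in intron 3 of ZNF423, 137 for an MLT1D peak near ZNF575 and 116 for an MLT1G3 peak near ZNF613. Among cytosolic ribosomal protein symbols, RPL38 was assigned a THE1C peak of 51, 60353 bp upstream of its start. The pseudogenes RPL13AP17 and RPLP0P2 were assigned a THE1C peak of 30 and an MLT1J peak of 74. No member was assigned to MTOR, RPTOR, RICTOR, THAP11, HCFC1 or PML. The nearest gene is a label of position, and no expression was measured in this data set.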

How the data were processed

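The deposited table lists the peaks of 1 mTOR ChIP library, and the submitters' processing notes name Trimmomatic 0.36, BWA 0.7.12, Picard 2.0.1, MACS2 2.1.1.20160309, HOMER 4.11.1 and hg38 without settings. The peak threshold and the treatment of duplicate and multiply aligned reads are not stated in those notes. The latter can change which copies of a repeat family carry a peak, more so for young than for old copies. The authors deposited the score as whole numbers of no stated scale. Positions and distances to start sites were used as deposited, and read depth is unknown.

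The repeat annotation was split into name, class and family. Names ending -int were internal. A peak's centre is the midpoint of its ends. The 2147 peaks scoring 200 or more are the top 10%, with 10 tied at 200. The 10724 peaks scoring 61 or more are those at or above the median. Members, groups and settings were chosen with earlier results of these data known. The peaks named were the 5 highest-scoring of MLT1, THE1 LTR and MST LTR, up to 10 per group within 1 kb of a start, the top 3 near ZNF genes, any at 7 listed genes, and names with at least 10 peaks. Some results under this rule are not reported here. Intervals and the neighbour search were tested on simulated data. Alternatives were score limits, narrow peaks, distances, and chromosome 19, start-site peaks or MLT1 internal names left out. MLT1J left out, the shares of chromosomes 20 and 16, partners of the own class and limits on the LTR peak alone were added after the data were seen. Software was Python 3.11.15, scipy 1.17.1, numpy 2.4.6, pandas 2.3.3 and, for plots, matplotlib 3.10.9. No genome sequence or repeat map was used here.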

Additional observations from a re-analysis of the deposited data

How the results depend on the processing

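Of 122 alternative values 79 stayed within the interval of the reported value and 43 did not. Some of the 43 measured another quantity, such as the top 5% by score or a distance of 5 kb from a start. Others rested on few peaks, such as the 16 THE1 and MST LTR peaks scoring 200 or more. The tally is therefore not a measure of how stable the results are. No paired analysis was possible because there is 1 ChIP library. Among peaks up to 400 bp wide the median score was 53 for MLT1 and 47 for THE1 and MST LTRs, and no peak of either scored 200 or more (0%), since width and score rise together. Without MLT1J the MLT1 median score was 59. Scores in the top 5% (304 or more) were found in 29 of 568 MLT1 peaks (5.11%, 3.45 to 7.25%). THE1 and MST LTR peaks had 4 of 274 (1.46%, 0.399 to 3.70%), and these intervals overlapped. Of all repeat-labelled peaks a share of 0.953 scored 303 or less. Their share at 304 or more lay inside the MLT1 interval and above the THE1 and MST LTR interval. Scores of 61 or more were found in 55.5% of MLT1 and 51.5% of THE1 and MST LTR peaks. Median widths were 445 and 466 bp at scores of 61 or more and 632 and 802 bp at 200 or more, from 51 and 16 peaks.

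Within 1 kb of a start lay 1 of the 51 MLT1 peaks scoring 200 or more (1.96%, 0.0496 to 10.4%). THE1 and MST LTR peaks had 0% there at either score limit and among narrow peaks, from 141, 16 and 151 peaks. Within 5 kb lay 9.68% of MLT1 peaks and 8.76% of THE1 and MST LTR peaks. Both groups had 0% in the promoter class, as they must, because no peak of that class carried a repeat label. Both also had 0% within 100 bp, but no repeat-labelled peak lay closer to a start than 203 bp. These zeros therefore say nothing particular about the members. Introns held 15 of the 51 MLT1 peaks scoring 200 or more (29.4%, 17.5 to 43.8%). On chromosome 20 lay 8 of these 51 (15.7%, 7.02 to 28.6%) and 20 of 306 narrow MLT1 peaks (6.54%, 4.04 to 9.91%). These intervals overlapped those of all MLT1 peaks. Of the 16 THE1 and MST LTR peaks scoring 200 or more 0% lay on chromosome 20 and 0% on chromosome 16. A count of 0 in 16 allows a share of up to 20.6% by the exact interval.

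The share of THE1 and MST LTR peaks beside an internal peak fell most when both peaks had to pass a limit: 3.55% at scores of 61 or more, 0% at 200 or more and 0.662% among narrow peaks. With the limit on the LTR peak alone, an alternative chosen after the data were seen, it was 6.38% (9 of 141) at 61 or more, 6.25% (1 of 16) at 200 or more and 11.3% among narrow LTR peaks. MLT1 had 0% at both score limits and within 2 kb, and 1.76% within 10 kb. MLT1 peaks beside another MLT1 peak made up 0.635% at scores of 61 or more, 0% at 200 or more, 0.654% among narrow peaks and 4.93% within 10 kb. THE1 and MST LTR pairs were at 0% at 200 or more and among narrow peaks. The alternatives that left out chromosome 19, peaks within 1 kb of a start or MLT1 internal names, or took partners of the own class alone, moved no value outside its interval. Depth is unknown, so a copy without a peak does not show missing binding.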
